A study of Acropora aff. hyacinthus sp. E JTL-2012 with 12 samples.

Results

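Among coral fragments that had lived side by side in pool 400, those native to pool 300 were compared with those native to pool 400. The members were chosen by their labels alone, as the fragments transplanted into pool 400, and make up 6 of the 12 libraries of the study. Polyps of corals 2, 7 and 75, taken from pool 300, were set against polyps of corals 40, 68 and 70, taken from pool 400 and replanted there. All 6 are separate colonies of Acropora aff. hyacinthus sp. E, a table-forming reef coral, moved on August 3, 2010 and sampled close to noon on August 30, 2011. Every fragment was moved, those native to pool 400 included, and no untransplanted colony enters the comparison. The other fragment of each colony lived in pool 300, and those 6 libraries serve as a second look at the same colonies.

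Both pools lie on a back reef, and water temperature swings less in pool 400 than in pool 300. Reef corals carry photosynthetic algae of the genus Symbiodinium inside their cells, so RNA from a polyp holds transcripts of both partners. The comparison asks which transcripts still differed by origin after a year in a shared pool. With 3 colonies a side, a difference between pools of origin and differences between individual colonies cannot be told apart.

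The numbers of 2 pool 400 fragments go against their pool 300 partners. A pair of fragments of one colony should share the contigs that the colony lacks. Contigs with 0 reads in the pool 400 fragment or its partner and at least 20 in the other numbered 4 for coral 2, 5 for coral 7, 6 for coral 75 and 19 for coral 70. For the pairs labelled 40 and 68 they numbered 57 and 36, while the pool 400 fragment labelled 40 set against the pool 300 fragment labelled 68 gave 12, and the opposite pairing gave 36. The correlation of log2 values across contigs was 0.842 and 0.856 for the labelled pairs of corals 40 and 68, and 0.880 and 0.909 with the pool 300 partners exchanged. Galaxin (contig184232) shows it in 1 contig: it stood at 11.6 in the pool 400 fragment labelled 40 and at 176.0 in that labelled 68, against 90.9 and 6.02 in the pool 300 fragments labelled 40 and 68. Both colonies are natives of pool 400, so the groups within pool 400 stay as labelled, and only comparisons that pair the pools by colony depend on it. Calls that do so are given below also with the partners exchanged and without both colonies.

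The values are scaled reads, the read count of an assembled contig divided by a size factor of its library. Libraries held between 557339 and 1643526 reads in pool 400, and the shallowest, coral 2, had no read in 9.35% of the 16980 contigs, against 0.336% to 3.20% in the other 5. Coral 2 also stood farthest from the other natives of its pool: after rescaling to median-ratio factors its contigs deviated from the mean of corals 7 and 75 by a median of 0.82 on the log2 scale, while the same measure was between 0.33 and 0.60 for the other 5 corals. The deposited scaling of the pool 400 libraries shifted all contigs together. The median origin difference over the 11903 contigs tested was -0.22 on the log2 scale as deposited and 0.05 after rescaling, so list medians are given relative to that of all contigs. In bulk polyp RNA, fewer cells of a type and less RNA per cell cannot be told apart.

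Among the pool 400 fragments, a C-type lectin and an uncharacterized protein were lower, and a TNF receptor was higher, in natives of pool 300 than in natives of pool 400. At a limma adjusted p under 0.05, 3 of 11903 contigs passed, which is 0.0252% of those tested, and 1 was higher (0.0084%) and 2 were lower (0.0168%) in origin 300 than in origin 400. After rescaling 2 passed and both were higher in origin 300, of which 1 was shared. edgeR called 0 contigs, with 322 at an unadjusted p under 0.05, and DESeq2 called 14, the 3 among them, with 8 higher and 6 lower. Leaving out coral 40 or coral 70 left no call, and leaving out coral 7 lost the call of the TNF receptor described below. The count was 5 without coral 2 and 8 without coral 68. It was 91 without coral 75, with 27 higher and 64 lower, and 1 when the values were rescaled as well. At an unadjusted p under 0.05 there were 270 contigs, 2.27% of those tested, which is below the share of 0.05 that evenly spread p-values give. Origin took 19.5% of the spread of log2 values among the 6 libraries, where 1 degree of freedom of 5 corresponds to 20% (exact two-sided permutation p = 0.4 over 20 assignments, smallest possible 0.1). The scatter among colonies was wide on the deposited scale. The median SD of a contig over 3 corals in pool 400 was 0.60 in origin 300 and 0.54 in origin 400, on the log2 scale. In the pool 300 fragments of the same origins it was 0.40 and 0.35. After rescaling it was 0.57 and 0.41 in pool 400, and 0.40 and 0.35 in pool 300. The excess over pool 300 was thus smaller after rescaling, mainly in origin 400. Counts were also simulated with the scatter of all 12 libraries, the tighter pool 300 fragments included, and scaled by the factors that made them. There the same test recovered 4% of contigs changed 2-fold, 50% of those changed 4-fold and 76% of those changed 16-fold. Recovery at the scatter of pool 400 alone was not simulated.

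A lectin transcript was nearly missing from the natives of pool 300. Its contig71140 is described as C-type lectin domain family 10 member A. C-type lectins are carbohydrate-binding receptors, which in vertebrates act in innate immune recognition. It stood at 9.94, 13.1 and 0 scaled reads in corals 2, 7 and 75, against 299.1, 361.6 and 380.2 in corals 40, 68 and 70. The groups lay far apart, with every native of pool 400 above 299 and every native of pool 300 at or below 13.1. Its log2 difference was -6.01 (SE 0.77; adjusted p = 0.0181 in limma). In pool 300 the same colonies gave 2.90, 10.6 and 3.02 scaled reads for origin 300 and 334.1, 475.7 and 160.8 for origin 400, a difference of -5.71. After rescaling the difference in pool 400 was -5.70 and the limma adjusted p was 0.283. On the deposited scale it ranged between 2.0e-17 and 0.318 with 1 coral left out.

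The transcript that passed in the other direction is described as Tumor necrosis factor receptor superfamily member 16 (contig176696), in vertebrates a death-domain receptor that binds neurotrophins. It stood at 139.1, 264.2 and 267.2 scaled reads in corals 2, 7 and 75, against 18.2, 22.0 and 42.2 in corals 40, 68 and 70. All natives of pool 300 were above all natives of pool 400. Its log2 difference was 3.01 (SE 0.45; adjusted p = 0.0315 in limma), and after rescaling it was 3.28 (adjusted p = 0.0374). The pool 300 fragments repeated the split, with 246.2, 254.7 and 256.5 in origin 300 and 48.7, 14.5 and 16.2 in origin 400. With 1 coral left out its limma adjusted p ranged between 0.00016 and 0.313.

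Of the 13 contigs with this same receptor description, 10 were tested, with differences of both signs. The second to lie wholly higher, contig177460, stood at 24.8, 51.4 and 49.6 in origin 300, against 17.3, 5.50 and 20.8 in origin 400, a difference of 1.57 (SE 0.62, limma adjusted p = 0.984). One lay wholly lower, contig179731, with 19.9, 19.2 and 38.0 in origin 300 and 52.1, 67.4 and 72.7 in origin 400, and a difference of -1.34. The other contigs of this description overlapped between origins, and their differences lay between -1.18 and 0.22.

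The last contig to pass, contig151892, carries only the description Putative uncharacterized protein. It stood at 4.97, 5.23 and 1.06 in corals 2, 7 and 75, against 162.8, 49.5 and 153.7 in corals 40, 68 and 70, and fell by 4.68 (SE 0.67, limma adjusted p = 0.0315). The limma adjusted p was 0.269 after rescaling, and ranged between 1.3e-07 and 0.555 with 1 coral left out. Its groups were separate in pool 400 but overlapped in pool 300, where corals 7 and 75 gave 99.0 and 66.4 and coral 68 gave 3.61, for a difference of 0.04. The difference between the pools was not called (limma adjusted p = 0.9996).

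The other contig that passed after rescaling, Uncharacterized protein RSN1 (contig69137), was chosen after its values were seen. It gave 62.9, 85.4 and 89.8 in corals 2, 7 and 75, against 3.31, 4.12 and 13.2 in corals 40, 68 and 70. Its difference was 3.55 on the deposited scale (limma adjusted p = 0.0767) and 3.82 after rescaling (limma adjusted p = 0.0374). It also passed in DESeq2 (adjusted p = 3.1e-09) but not in edgeR (adjusted p = 0.0818). With 1 coral left out on the deposited scale, its limma adjusted p ranged between 0.00639, without coral 75, and 0.449. In pool 300 the fragments of both origins were low, at 4.34, 17.4 and 10.1 in origin 300, against 9.38, 9.63 and 5.71 in origin 400. The difference between the pools was not called (limma adjusted p = 0.9996, after rescaling 0.736).

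**Figure D1:**
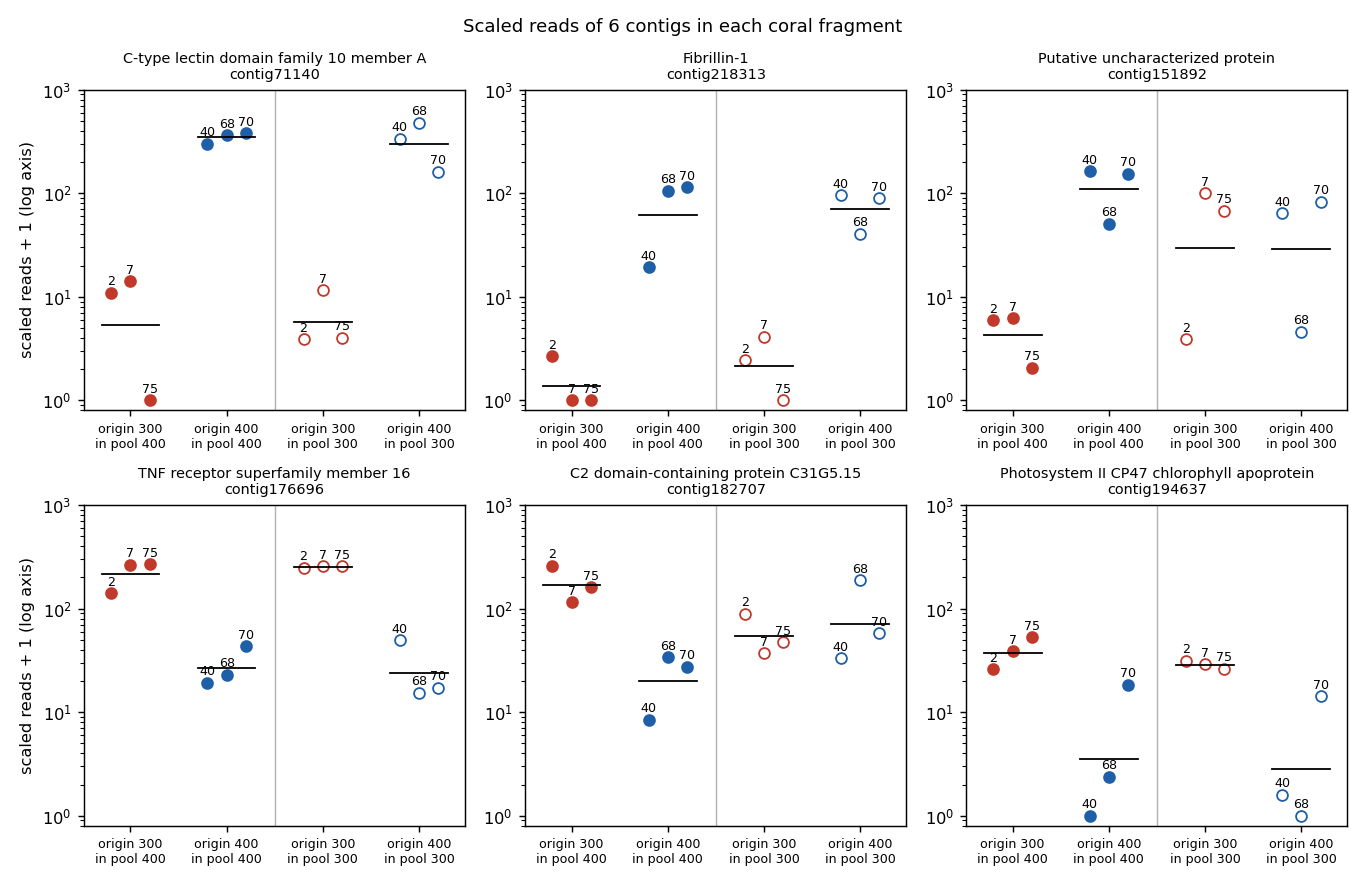
Scaled reads plus 1 on a log axis for 6 contigs in every fragment, grouped by origin and by the pool lived in. Filled points are pool 400 fragments, open points are pool 300 fragments, numbers are corals and bars are means of log values; the C-type lectin, Fibrillin-1, the TNF receptor and CP47 are split in both pools, while C2 domain-containing protein C31G5.15 and contig151892 are split in pool 400 only.

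The further members described are those of smallest p with an informative description whose 3 values of one origin did not overlap the 3 of the other. There are 12 in each direction, and they include the C-type lectin and the TNF receptor that were called. The other 22 were not called. Contigs without overlap made up 0.958% of those tested when higher in origin 300 and 3.85% when lower, or 3.78% and 4.26% after rescaling. Of these 24 contigs, 21 had the same direction in pool 300 and 14 were again without overlap there, against 2.55% of all contigs higher and 3.14% lower without overlap in pool 300. Without the 2 calls, 19 of 22 had the same direction and 12 were without overlap. The comparisons use the same colonies, so this repeats a colony's own level and is no independent replication. Of the 24, 22 were without overlap after rescaling as well.

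Matrix and membrane proteins were among the members at the low end. Fibrillin-1 (contig218313), in vertebrates a microfibril protein, stood at 1.66, 0 and 0 in corals 2, 7 and 75, against 18.2, 104.5 and 113.6 in corals 40, 68 and 70. The natives of pool 300 thus held 1 read in all, against 262 reads in the natives of pool 400, a ratio of 209-fold lower with an exact 95% counting interval of 37.2 to 8287. The fitted difference was -5.47 (SE 0.97, limma adjusted p = 0.0929), and it was -5.03 in pool 300. The other tested Fibrillin-1 contig, contig16536, overlapped between origins, with a difference of -0.77.

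Netrin receptor UNC5D (contig185416), a receptor for netrin guidance cues in vertebrates, stood at 0, 0.87 and 21.1 in corals 2, 7 and 75, against 40.5, 67.4 and 92.1 in corals 40, 68 and 70. Coral 75 was the highest of the natives of pool 300 in both pools, at 23.1 in pool 300. The difference was -4.21 (SE 0.98, limma adjusted p = 0.698). Proline-rich transmembrane protein 1 (contig113028) gave 1.66, 1.74 and 11.6 in origin 300, against 26.4, 42.6 and 35.3 in origin 400, a difference of -2.96. Its groups overlapped in pool 300.

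Another 3 members at the low end have descriptions from signalling, RNA decay and redox defence. TNF receptor-associated factor 4 (contig600140), one of the adaptors that link TNF receptors to kinases, stood at 8.28, 20.9 and 18.0 in origin 300, against 133.9, 78.4 and 26.3 in origin 400, and its groups overlapped after rescaling. Its description had 3 tested contigs, with differences between -2.08 and 0.21. Probable ribonuclease ZC3H12C (contig55309), a relative of enzymes that degrade inflammatory mRNAs in mammals, gave 1.66, 14.8 and 16.9 in origin 300, against 66.9, 24.8 and 54.0 in origin 400. Its difference was -2.33 in pool 400 and 0.02 in pool 300, and the 3 tested contigs of the description ranged between -2.33 and 0.48. Superoxide dismutase [Cu-Zn] 5 (contig114751), named for an enzyme that removes superoxide, gave 1.66, 30.5 and 22.2 in origin 300, against 104.1, 35.7 and 74.1 in origin 400, a difference of -2.41. The second contig of that description, contig207849, was also lower without overlap at -0.72, but overlapped after rescaling. No contig in this paragraph passed (limma adjusted p = 0.984 for each).

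Major vault protein (contig219416), the main component of the vault ribonucleoprotein particle, was close to absent in the natives of pool 300. It gave 4.97, 2.62 and 1.06 scaled reads in corals 2, 7 and 75, against 25.6, 16.5 and 25.6 in corals 40, 68 and 70. In pool 300 the same split was wider, with 0, 1.25 and 0 in origin 300 and 15.8, 26.5 and 20.9 in origin 400. The other 2 tested contigs of that description overlapped. Eukaryotic translation initiation factor 5B, which joins the ribosomal subunits, had 6 tested contigs, all with differences between -1.79 and -0.66. Of these, 4 were lower without overlap, against 3.85% of all contigs tested. The first of them, contig600139, gave 6.62, 24.4 and 15.8 in origin 300, against 52.1, 35.7 and 67.9 in origin 400. After rescaling contig181163 also overlapped. In pool 300 the 6 differences lay between -0.86 and -0.06, and only contig189933 was without overlap. The remaining 3 members at the low end were Calcium-activated potassium channel subunit beta-4 (contig203882) at -1.30, Protein Muted homolog (contig58671) at -1.52 and Pancreatic triacylglycerol lipase (contig176724) at -2.03. None of the contigs in this paragraph passed (limma adjusted p = 0.984 for each).

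At the high end stood C2 domain-containing protein C31G5.15, a fission yeast name for a protein with the C2 domain, which in many proteins binds membrane lipids. The description was chosen through contigs of smallest p without overlap, so a count of its members is not independent of that choice. Of its 4 tested contigs, 3 were higher without overlap in pool 400, against 0.958% of all contigs tested. The same 3 were so after rescaling, against 3.78% of all contigs tested. The leading one, contig182707, gave 258.3, 114.2 and 159.5 in corals 2, 7 and 75, against 7.44, 33.0 and 26.3 in corals 40, 68 and 70, a difference of 3.09 (SE 0.54, limma adjusted p = 0.0929). The second, contig151589, gave 77.8, 64.5 and 78.2 in origin 300, against 0, 11.0 and 15.2 in origin 400, a difference of 3.68. The third, contig153653, gave 13.2, 22.7 and 56.0 in origin 300, against 9.92, 8.25 and 8.31 in origin 400.

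None of these 3 was split in pool 300. There contig182707 gave 88.3, 36.1 and 46.3 in origin 300, against 32.2, 186.6 and 57.1 in origin 400, and the highest fragment was that labelled 68. The difference between the origin differences of the pools was 3.49 for contig182707 (limma adjusted p = 0.0771, after rescaling 0.00625, in edgeR 0.00624). For contig151589 it was 4.93 (limma adjusted p = 0.344, after rescaling 0.0357, in edgeR 0.174). With the partners of corals 40 and 68 exchanged the limma adjusted p was 0.999999 for both, and 0.981 for both after rescaling as well. Without both colonies the values were 2.73 and 3.25 (limma adjusted p = 0.229 and 0.421), with coral 70 as the sole native of pool 400, assumed to vary like the others.

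BRISC and BRCA1-A complex member 1 (contig217171), a scaffold of deubiquitinating complexes in mammals, gave 288.1, 170.0 and 42.2 in corals 2, 7 and 75, against 1.65, 12.4 and 16.6 in corals 40, 68 and 70. The difference was 3.91 (SE 0.77, limma adjusted p = 0.236), and the groups overlapped in pool 300, where it was 1.77. Alpha-2-macroglobulin receptor-associated protein (contig193017), a chaperone of lipoprotein receptors in mammals, gave 124.2, 80.2 and 79.2 in origin 300, against 19.0, 56.4 and 32.5 in origin 400. Its difference was 1.47 in pool 400 and 1.22 in pool 300, without overlap in either. A matrix-like contig described as Sushi, von Willebrand factor type A, EGF and pentraxin domain-containing protein 1 (contig183368) gave 51.3, 0.87 and 34.8 in corals 2, 7 and 75 and no read in corals 40, 68 and 70. Set against a floor of 3 reads over the 3 libraries at 0, its reads summed over the corals were at least 27.2-fold higher in origin 300. Coral 7 gave only 1 of those reads, and the lack of overlap rests on it. The fitted difference was 3.93 (SE 1.65, limma adjusted p = 0.984). Of the 16 tested contigs of this description, 1 was higher and 2 were lower without overlap. Over all contigs tested the shares were 0.958% and 3.85%. Coral 7 held almost none of it in either pool.

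Coral 70 stood between the groups in a set of contigs at the high end. Periodic tryptophan protein 1 homolog (contig164706), in yeast a ribosome biogenesis factor, gave 162.3, 82.0 and 67.6 in origin 300, against 1.65, 0 and 34.6 in corals 40, 68 and 70. Rootletin (contig209488), a component of ciliary rootlets in animals, gave 38.1, 19.2 and 16.9 in origin 300, against 0, 0 and 3.46 in origin 400. Photosystem II CP47 chlorophyll apoprotein (contig194637), a chloroplast-encoded antenna protein of algae, gave 24.8, 37.5 and 51.8 in origin 300, against 0, 1.37 and 17.3 in origin 400. In each of the 3, coral 70 was the highest native of pool 400 in both pools, and the groups were without overlap in both. None of the 3 passed in pool 400 (limma adjusted p = 0.618, 0.984 and 0.984).

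CP47 is one of only 2 contigs with a photosynthesis description, and both names are of chloroplast proteins. The other, Photosystem Q(B) protein (contig217061), gave 28.1, 57.5 and 69.7 in origin 300, against 62.0, 63.2 and 57.5 in origin 400, with overlapping groups. Its difference was -0.32 on the deposited scale and -0.06 after rescaling. The summed level of both contigs lay between 53.0 and 121.5 in origin 300 and between 62.0 and 74.8 in origin 400, with overlap.

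**Figure D2:**
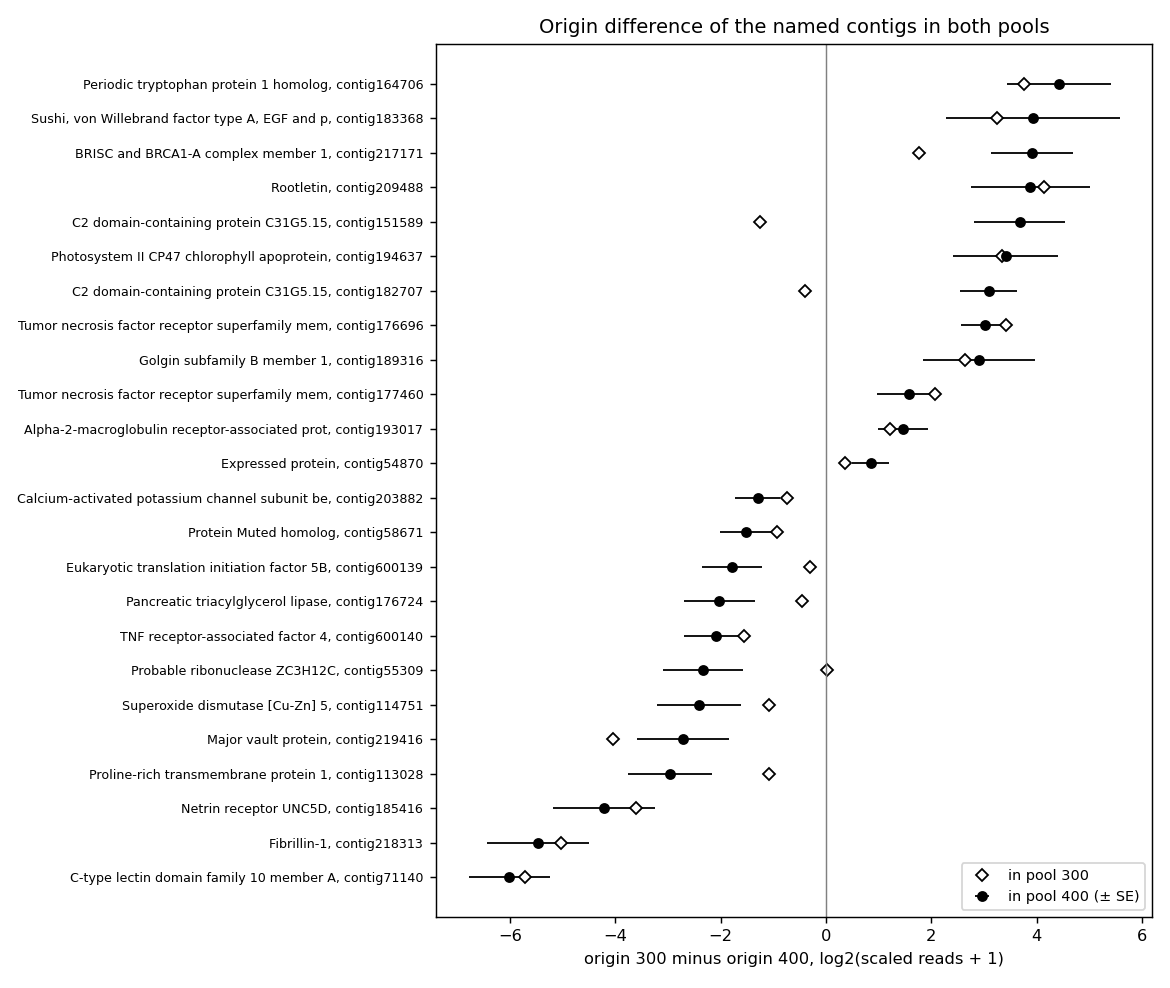
Origin difference (origin 300 minus origin 400, log2 of scaled reads plus 1) of the 24 named contigs, as filled points with SE for pool 400 and open diamonds for pool 300. 21 of the 24 lie on the same side of 0 in both pools, and both C2 domain contigs change side; the value of contig183368 has 3 libraries at 0 and depends on the added 1.

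Contigs were also grouped into 30 lists by words in their descriptions. The TNF receptors and ligands list held 1 call, higher in origin 300, and the lectin list 1 call, lower. No member of the other 28 lists passed. The counts without overlap in each list ranged from 0 to 3 higher and from 0 to 5 lower, where all contigs tested gave 0.958% higher and 3.85% lower. The largest lists gave 2 higher and 4 lower of 132 for collagens and extracellular matrix, and 0 and 4 of 106 for lipid metabolism. As shares these are 1.52% and 3.03%, and 0% and 3.77%, with the shares lower in origin 300 below that of all contigs.

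Skeleton and colour proteins overlapped between origins in the contigs of smallest p. Galaxin, a protein of the coral skeletal matrix, had 2 contigs. The first, contig184232, gave 418.9, 151.7 and 206.0 in corals 2, 7 and 75, against 11.6, 176.0 and 15.9 in corals 40, 68 and 70, so that coral 68 lay among the natives of pool 300. Its difference was 2.82 (SE 0.76, limma adjusted p = 0.984). The second, contig600046, gave 97.7, 61.9 and 257.7 in origin 300, against 24.8, 152.6 and 13.9 in origin 400. Cyano fluorescent protein (contig205082), a green fluorescent protein relative, gave 14.9, 2.62 and 8.45 in origin 300, against 9.09, 88.0 and 87.3 in origin 400. GFP-like fluorescent chromoprotein amFP486 (contig151799) gave 597.8, 340.9 and 218.6 in origin 300, against 85.9, 270.8 and 247.9 in origin 400.

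Another 5 contigs described simply as Lectin were higher on average in origin 300, opposite to the C-type lectin, and followed corals 2 and 75. The first, contig189472, gave 321.2, 49.7 and 161.6 in corals 2, 7 and 75, against 15.7, 34.4 and 72.7 in corals 40, 68 and 70. The differences of the 5 lay between 0.89 and 2.40 on the deposited scale, and each overlapped between origins. After rescaling 3 of the 5 (contig189472, contig175604 and contig184095) were higher without overlap. Rescaling also raised that share over all contigs tested, from 0.958% to 3.78%. Coral 7 was the lowest native of pool 300 in all 5. Whether the 5 are near-identical contigs that split their reads was not tested.

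Cytosolic ribosomal proteins stood farthest from all contigs among the 28 lists with at least 5 tested members; the 2 photosynthesis contigs had a median 1.76 above. Of 39 contigs matched as cytosolic ribosomal proteins, which include 2 ribosomal protein S6 kinases, 36 lay above the median difference of all contigs. Their median stood 0.45 above that of all contigs in pool 400 and 0.12 above it in pool 300, on the log2 scale. No member passed or was without overlap. By fragment, the list's median deviation from the mean of the 6 was 1.01, 0.02 and -0.25 in corals 2, 7 and 75, against -0.13, 0.29 and -0.90 in corals 40, 68 and 70. Coral 2 was the highest and coral 70 the lowest of the 6, and the groups overlapped. Without coral 2 the list stood 0.07 above all contigs and without coral 70 it stood 0.13 above, while without coral 75 or 68 it stood 0.70 or 0.71 above. Corals 2 and 70 were also the shallowest and the deepest library, with 557339 and 1643526 reads. The part of depth in this result was not tested.

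Leaving out coral 2 moved other lists as well, and their medians are given beside their range with 1 coral left out. Of 78 oxidative phosphorylation contigs 54 lay above the median of all contigs, and the list stood 0.19 above it, with a range between 0.01 without coral 2 and 0.38 without coral 75. Of 41 proteasome contigs 29 lay above, and the list stood 0.17 above, with a range between 0.06 without coral 2 and 0.29 without coral 68. Of 27 mitochondrial ribosomal proteins 18 lay above, and the list stood 0.20 above, with a range between 0.07 without coral 2 and 0.30 without coral 75. Muscle markers lay on the other side, with 7 of 19 above and a median of -0.14 relative to all contigs, between -0.38 without coral 75 and -0.01 without coral 2. Antioxidants stood at 0.14, between 0.04 without coral 2 and 0.22 without coral 68. The sign of several large lists turned with 1 coral left out. Heat shock proteins and chaperones stood at 0.07 but at -0.01 without coral 70. Collagens and extracellular matrix stood at -0.08 but at 0.02 without coral 2. Lipid metabolism stood at 0.05 but at -0.08 without coral 75, and ion channels at 0.04 but at -0.01 without coral 7. Sperm and cilia markers stood at -0.09 but at 0.05 without coral 2.

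**Figure D3:**
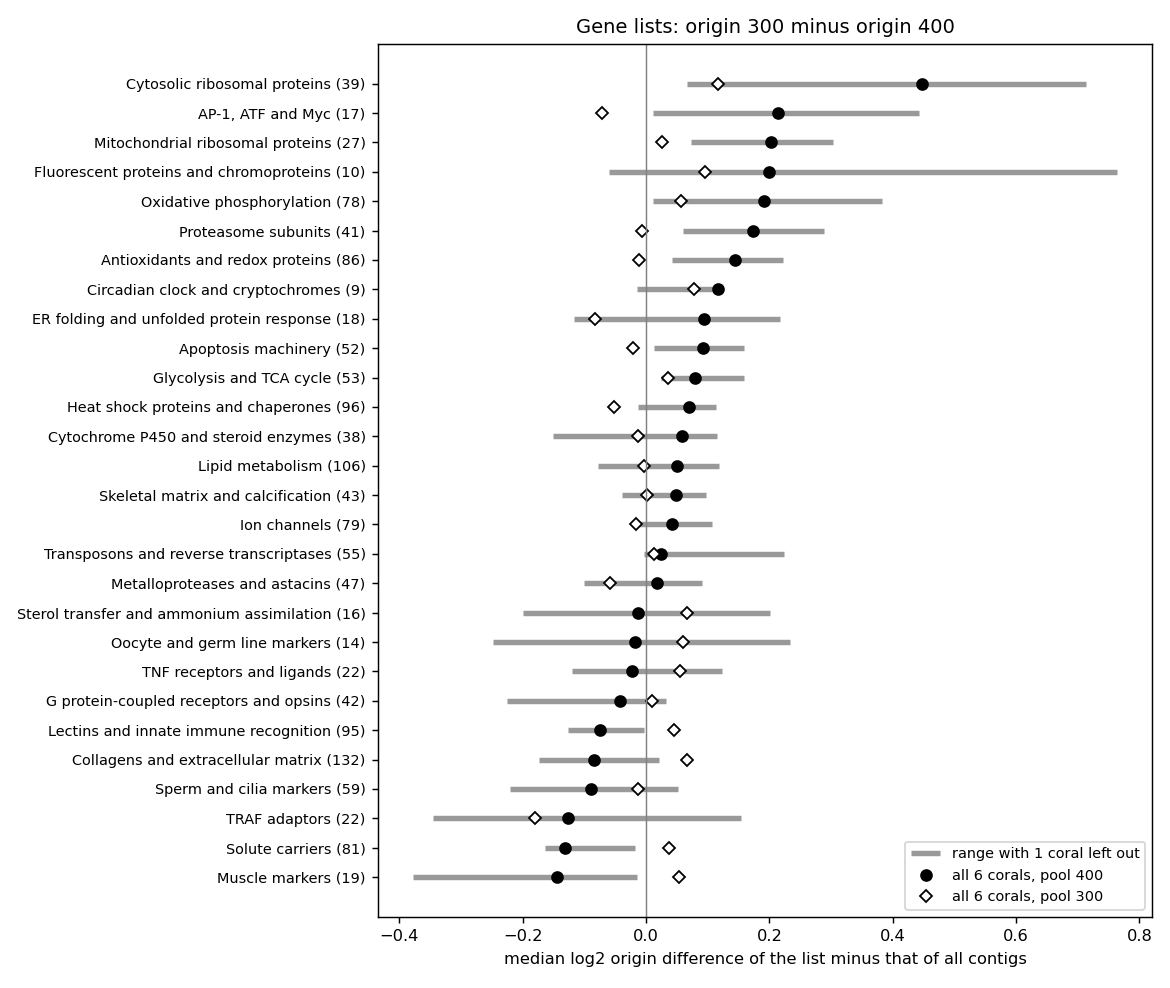
Median log2 origin difference of each list of at least 5 tested contigs minus that of all contigs, with the number tested in brackets. Filled points are pool 400, grey bars their range with 1 coral left out and open diamonds pool 300; cytosolic ribosomal proteins stand farthest right at 0.45, with a bar from 0.07 to 0.71.

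**Figure D4:**
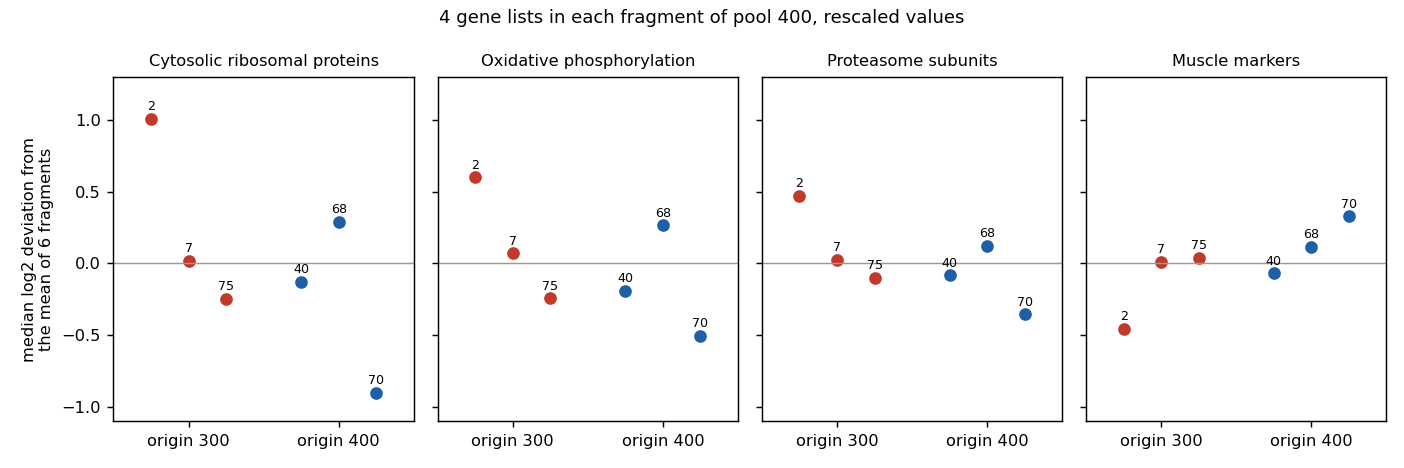
Median log2 deviation of 4 lists from the mean of the 6 pool 400 fragments, after rescaling, with 1 point per coral. Coral 2 is the highest and coral 70 the lowest in the ribosomal, respiratory and proteasome lists, and the reverse in the muscle list.

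Markers of cell types that a polyp holds were without a call. Both tested cnidocyte markers were detected in each fragment, summing to between 42.2 and 58.4 scaled reads in origin 300 and between 35.5 and 101.8 in origin 400. The 19 muscle markers summed to between 1593 and 2108 in origin 300 and between 1359 and 2682 in origin 400. The 14 oocyte and germ line markers summed to between 682.2 and 839.7 in origin 300 and between 478.4 and 1238 in origin 400. The 59 sperm and cilia markers summed to between 2825 and 3705 in origin 300 and between 2587 and 4893 in origin 400. The ranges overlapped for each list.

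No contig of the AP-1, ATF and Myc list was called by origin in pool 400. Of its 17 tested contigs 10 lay above the median of all contigs, and the list's median stood 0.21 above it, with 0.01 without coral 2, and 0.07 below it in pool 300. The member of smallest p, C-myc promoter-binding protein (contig82728), differed by -1.29 in pool 400 and -0.55 in pool 300. Myc proto-oncogene protein (contig139133), a growth-promoting transcription factor, gave 185.5, 170.9 and 218.6 in origin 300, against 199.1, 93.5 and 101.8 in origin 400, a difference of 0.62 (SE 0.37, limma adjusted p = 0.984). In pool 300 it gave 30.4, 25.5 and 72.4 in origin 300, against 83.2, 86.7 and 82.8 in origin 400, a difference of -1.11. Transcription factor AP-1 (contig211469), chosen after its values were seen, differed by 0.42 in pool 400 and -1.18 in pool 300. The difference between the pools was not called for Myc or for AP-1 (limma adjusted p = 0.9996).

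Over all contigs the origin difference in pool 400 minus that in pool 300 was called in 0 of 11903 contigs, 0% of those tested, by limma with the coral as a block, and in 1 by edgeR. It was also 0 with the partners of corals 40 and 68 exchanged, and 0 without both colonies. At an unadjusted p under 0.05 there were 211. Within pool 300, origin called 1 contig, 0.0084% of those tested, and it was the C-type lectin contig71140 again. Contigs without overlap made up 4.81% of those tested in pool 400 and 5.7% in pool 300, both below the probability of 0.1 under random assignment. No contig of the 16980 lacked reads in all 3 corals of one origin while holding at least 10 in each coral of the other.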

How the data were processed

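Polyp RNA was sequenced with TruSeq libraries, 12 to a lane, per the labels. The submitters' processing notes name BWA and DESeq. Their roles and versions are not given in the sources used here. The deposited values are a signal, reads per contig divided by a size factor, since dividing by the worth of 1 read in its library makes all but 1 of 203760 values whole (tolerance 0.01). The pool 400 columns are marked as adjusted per the file headers, with no account of the adjustment in the sources used here. Another 9 columns of group summaries were not used.

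Tests covered 11903 of 16980 contigs, those averaging 10 or more across 12 libraries, as log2(value + 1) in limma 3.58.1 (R 4.3.3, variance trend, Benjamini-Hochberg adjusted p under 0.05) on the 6 pool 400 libraries. Folds are on that scale, which understates changes of low contigs. The difference between pools was fitted over 12 libraries with a term for each coral as the replicate block, because both fragments come from one colony. The 4-group model of origin over 12 libraries took the block as a correlation within corals of 0.349. Recovered reads were also tested with edgeR 4.0.16 (quasi-likelihood), which called 0 contigs for origin in pool 400, and DESeq2 1.42.0, which called 14. Rescaling means median-ratio factors computed from recovered reads.

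Named contigs were every call, the 12 of smallest p in each direction whose groups did not overlap and that had an informative description, and the 2 members of smallest p in each list. Lists are word matches in descriptions and include some unrelated proteins. Members and lists were chosen with earlier results of these data known. Several contigs of one description may be parts or copies of one gene. No genome or sequence was used here. The fits were tested on simulated data with 200 of 11903 contigs changed. Intervals cover counting error only.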

Additional observations from a re-analysis of the deposited data

Results flagged for a closer look

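The 2 leading contigs of C2 domain-containing protein C31G5.15 were picked out because their origin difference in pool 400 differed from that in pool 300 in at least 1 fit of that difference. For contig182707 the difference between the origin differences was 3.49 on the log2 scale, past the threshold in edgeR (adjusted p = 0.00624) and in limma after rescaling (adjusted p = 0.00625) but not in limma as deposited (adjusted p = 0.0771). For contig151589 it was 4.93, past the threshold in limma after rescaling alone (adjusted p = 0.0357). In both, the 3 natives of pool 300 were higher in their pool 400 fragments than in their pool 300 fragments. With the partners of corals 40 and 68 exchanged, neither passed (limma adjusted p = 0.999999 for both).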

How the results depend on the processing

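For origin in pool 400, where 1 contig was called higher and 2 lower, the counts moved in most settings, and the cause was not tested. They were 3 and 3 with a pseudocount of 5, 1 and 4 with a minimum mean of 5 or no filter, and 0 and 1 with a minimum mean of 20. They were 2 and 0 after median-ratio rescaling, 1 and 1 with quantile normalization or a robust variance, and 0 and 0 without a variance trend. They were 0 and 0 in edgeR with TMM, with median-ratio factors or with no filter, and 8 and 6 in DESeq2. Leaving out 1 coral gave 0 to 27 higher and 0 to 64 lower, the highest counts without coral 75. Rescaled values with 1 coral left out gave 0 to 1 of each. Omitting corals 40 and 68 together, a choice added after seeing the data like the previous one, gave 0 and 0.

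The pairing by coral moved counts as follows. For origin in pool 400, the 4-group model over 12 libraries with the replicate block called 0 higher and 1 lower, and without the block 1 and 3. For origin in pool 300, where 0 were called higher and 1 lower, both models called 1 higher and 1 lower. For the difference between pools, 0 were called with the block, without it and with the partners of corals 40 and 68 exchanged. There rescaling called 2, edgeR called 1, leaving out a coral called 0 to 2, and rescaling with exchanged partners called 0.

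Origin in pool 300 gave 8 higher and 6 lower in DESeq2, 0 and 0 in edgeR, without a variance trend and without corals 40 and 68, and 0 to 2 higher and 0 to 4 lower with 1 coral left out.

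Among the 77 named contigs, 2130 of 2227 alternative values kept their direction and their side of the threshold, 49 lost a call, 28 gained one and 20 changed sign. The sign changes were in 5 contigs. Pancreatic lipase-related protein 1 (contig184325), 2.35 as reported, was -0.48 without corals 40 and 68. Thyrotroph embryonic factor (contig150770), -0.32 as reported, was 0.18, 0.064 and 0.0052 after rescaling without corals 75, 68 and 70. Photosystem Q(B) protein (contig217061), -0.32 as reported, ranged between -0.58 and 0.057 with 1 coral left out, above 0 without coral 2, and after rescaling it was 0.22, 0.13 and 0.055 without corals 2, 40 and 68. Nematocyst outer wall antigen (contig55047), -0.19 as reported, was 0.081 after rescaling, 0.00834 with quantile normalization and 0.0080 in edgeR with median-ratio factors, and ranged between -0.57 and 0.25 with 1 coral left out, above 0 without coral 70. After rescaling it was 0.19, 0.17, 0.20 and 0.27 without corals 7, 75, 40 and 70. Nematoblast-specific protein nb012a (contig80423), 0.26 as reported, ranged between -0.45 and 0.83 with 1 coral left out, below 0 without corals 7 (-0.061) and 40, and was -0.88 without corals 40 and 68, and -0.010 after rescaling without coral 40. Low contigs in coral 2 rest on few reads.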
